A study of Mus musculus with 16 samples.

Results

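The genes described are those of the proteins that build the cytosolic and the mitochondrial ribosome, chosen by symbol alone: *Rpl*, *Rps*, *Rplp0* to *Rplp2* and *Rpsa* for the cytosolic ribosome, and *Mrpl* and *Mrps* for the mitochondrial one. They number 163 of the 18990 genes in the table, 86 cytosolic and 77 mitochondrial. Of the cytosolic genes, 9 are named as copies of another member (*Rpl6l*, *Rpl7l1*, *Rpl22l1*, *Rpl32l*, *Rpl39l*, *Rps3a2*, *Rps3a3*, *Rps4l* and *Rps27l*), which leaves 77 core genes, 31 of the small and 46 of the large subunit. The mitochondrial genes divide into 29 of the small and 48 of the large subunit.

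The libraries are total RNA, depleted of ribosomal RNA, from primary wild-type BL6 mouse embryonic fibroblasts (MEFs) at passage 2, all of them transduced with the tet-STEMCCA lentivirus (Oct4, Sox2, Klf4 and c-Myc, or OSKM) and with rtTA. All cells received 40 nM of pooled siRNAs and then 2 µg/mL doxycycline to induce reprogramming, in medium that also held the GSK3 inhibitor chiron, the TGFb inhibitor Alk5i, ascorbic acid and LIF. The siRNAs were non-targeting (nt) or directed against *Wdr5*, *Brca1* or *Bard1*, and RNA was taken on day 3 or day 6, which gives 8 groups of 2 libraries. The 2 libraries of a group are independent experiments. In RNA from whole cultures, fewer cells of a kind and less RNA per cell cannot be told apart.

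The cytosolic ribosome translates nearly all messenger RNAs of a cell, and its proteins are needed in near equal numbers, so their genes are usually expressed as a block. Most of their mRNAs begin with a run of pyrimidines, the 5′ terminal oligopyrimidine (TOP) motif, through which mTORC1 and LARP1 set their translation and stability, and MYC is a well-known activator of the genes that build ribosomes. The mitochondrial ribosome is a separate machine of nuclear-encoded proteins that makes a small set of respiratory chain subunits, and its genes are widely linked to factors such as NRF1, the ETS protein GABP and YY1.

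Promoter letters are shown first because the classes differ in them. RefSeq promoters (GRCm38.p6, 250 bases before to 50 after the annotated start, 1 per gene) were at hand for 62 cytosolic and 68 mitochondrial members. A run of 8 or more C or T letters within 20 bases of the start stood in 46.8% of the cytosolic promoters, in 16.2% of the mitochondrial ones and in 15.9% of all 27025 promoters. The median longest run was 7 letters in cytosolic and 5 in mitochondrial promoters. These shares depend on the cutoff of 8 letters and on the 1 start used per gene, so they do not count TOP mRNAs. The letters CCGGAAG, the core of an ETS site, were found on either strand in 40.3% of cytosolic, 35.3% of mitochondrial and 9.12% of all promoters. AAGATGGC, a YY1 motif, stood in 8.06%, 17.6% and 2.88%, and TGCGCA, the core of the NRF1 site, in 17.7%, 30.9% and 8.06%. The GC box GGGCGG was found in 59.7%, 50.0% and 35.9%, and TATAAA in 11.3%, 5.88% and 14.2%. The E-box CACGTG, the MYC site, stood in 8.06%, 7.35% and 7.24%. Both strands were searched, CCGGAAG and AAGATGGC can share their AAG letters, and a match is a description of the sequence only. Of the cytosolic promoters, the C or T run stood in 45.7% of the 35 whose gene was called lower with siWdr5 at day 3 and in 48.0% of the 25 not called. Of the mitochondrial promoters, CCGGAAG stood in 24.3% of the 37 called lower and in 48.4% of the 31 not called. That was the widest split of the features in this class, and it was not tested. In the same order TGCGCA stood in 24.3% and 38.7%, AAGATGGC in 21.6% and 12.9%, and the C or T run in 16.2% and 16.1%.

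The 6 sequences below run from 120 bases before to 15 bases after the annotated start, 5′ to 3′ on the gene's strand. They were picked because the results turn on these genes: *Rps6* and *Rpl22l1* were lower with siWdr5 at day 3, *Rplp2* was not, *Rps27* had the largest rise from day 3 to day 6, and *Mrpl12* and *Mrpl42* had the largest falls with siBrca1. Capitals mark the longest C or T run near the start and each match to the motifs above.
Rps6, chr4:86857353-86857487, minus strand: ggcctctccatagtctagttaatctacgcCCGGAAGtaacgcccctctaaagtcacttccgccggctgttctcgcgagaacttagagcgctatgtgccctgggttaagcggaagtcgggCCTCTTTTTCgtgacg
Rps27, chr3:90213634-90213768, minus strand: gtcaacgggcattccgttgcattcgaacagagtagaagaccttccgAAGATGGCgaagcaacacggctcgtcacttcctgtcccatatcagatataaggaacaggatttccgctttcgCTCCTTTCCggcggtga
Rpl22l1, chr3:28805388-28805522, plus strand: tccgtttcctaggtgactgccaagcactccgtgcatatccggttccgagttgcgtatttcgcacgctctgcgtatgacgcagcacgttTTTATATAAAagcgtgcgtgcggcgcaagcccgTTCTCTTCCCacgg
Rplp2, chr7:141447531-141447665, plus strand: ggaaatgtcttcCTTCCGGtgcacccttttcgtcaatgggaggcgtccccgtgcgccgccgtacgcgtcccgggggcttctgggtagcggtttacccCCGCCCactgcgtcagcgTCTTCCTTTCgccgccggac
Mrpl12, chr11:120484517-120484651, plus strand: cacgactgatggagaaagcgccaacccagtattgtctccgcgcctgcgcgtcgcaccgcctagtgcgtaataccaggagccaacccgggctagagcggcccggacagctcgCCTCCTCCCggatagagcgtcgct
Mrpl42, chr10:95501935-95502069, minus strand: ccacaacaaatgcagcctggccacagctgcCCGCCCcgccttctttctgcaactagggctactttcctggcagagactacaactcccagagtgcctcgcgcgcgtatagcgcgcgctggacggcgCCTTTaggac
The C or T run was 10 letters long in *Rps6*, *Rpl22l1* and *Rplp2* and 9 letters in *Rps27* and *Mrpl12*. In *Mrpl42* it was 5 letters, the median of all promoters.

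Libraries held 11169738 to 26832534 reads in the genes of the table, and a floor of 3 reads was worth between 0.115 and 0.260 CPM, which is the reads of a gene scaled to a common library total. All but the least expressed members were far above this floor, and intervals from these counts would cover counting error only. The siRNA targets were checked first. *Wdr5*, which encodes a scaffold of histone methyltransferase complexes, read 131.7 and 130.5 CPM with nt at day 3, 50.6 and 55.3 with siWdr5, 74.3 and 68.9 with siBrca1 and 96.6 and 91.9 with siBard1. *Brca1*, a DNA repair ubiquitin ligase, read 82.4 and 78.0 CPM with nt against 37.5 and 19.4 with siBrca1, and *Bard1*, its partner, 30.5 and 29.1 against 18.01 and 20.8 with siBard1. Each knockdown also lowered other targets at day 3: all 3 targets fell with siWdr5 and with siBrca1, and *Bard1* and *Wdr5* fell with siBard1. At day 6, *Wdr5* was 91.8 and 98.1 CPM with nt and 85.5 and 72.4 with siWdr5. None of the 3 targets passed the test at day 6 with siWdr5, siBrca1 or siBard1. In the test of the day 6 change minus the day 3 change, all 3 were higher with siBrca1, 1 with siWdr5 and 0 with siBard1.

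Fibroblast markers were present in all groups, and markers of other cells moved with the groups. The summed CPM of 7 fibroblast markers (*Col1a1*, *Vim* and others) at day 3 was 6847 to 8021 with nt, 11717 to 11793 with siWdr5, 10496 to 11422 with siBrca1 and 10019 to 10420 with siBard1. The sum of 6 pluripotent or epithelial markers was 42.6 to 60.7, 14.5 to 15.5, 13.8 to 22.6 and 37.1 to 37.3 in the same order. At day 6 the fibroblast sum was 4225 to 4381 with nt, 7894 to 10210 with siWdr5, 5155 to 5769 with siBrca1 and 6267 to 6647 with siBard1, and the pluripotent or epithelial sum was 334 to 390, 189 to 250, 332 to 391 and 244 to 318. Both sums thus moved with the nt course, with each knockdown at day 3, and with siWdr5 and siBard1 at day 6. With siBrca1 at day 6 only the fibroblast sum lay apart from nt. *Zfp42* of this list had a mean log2 CPM of -1.40, below the level tested. Macrophage (4 of 5 in the table), endothelial (4), keratinocyte (3) and adipocyte (3) markers summed to at most 22.9, 54.6, 8.79 and 22.7 CPM in any library, and 3 skeletal muscle markers were not analysed here. *Cdh5* and *Pecam1* (endothelial), *Adgre1* (macrophage), *Krt5* (keratinocyte) and *Adipoq* (adipocyte) were below the level tested. *Tek* was the highest of the endothelial markers, at a mean log2 CPM of 4.77. The part of these cell mixtures in the results was not tested.

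Levels were compared between genes per kilobase of the principal transcript. The core cytosolic genes had a median of 541 CPM per kb over all libraries, with quartiles of 334 and 889. The mitochondrial genes had a median of 21.7 CPM per kb, with quartiles of 10.7 and 31.9. *Rplp1*, a stalk protein of the large subunit, was highest at 3274 CPM per kb, and *Mrpl52* was highest of the mitochondrial genes at 102 CPM per kb. *Rpl24* stood apart from the other core genes at 1.45 CPM per kb, with 4 to 32 reads a library, and was below the level tested. How the counting of reads bears on that value was not tested. Values of the copies are from nt at day 3 only, while the core quartiles are over all libraries. *Rps27l* was at 417 CPM per kb, within those quartiles. *Rpl22l1* (78.9), *Rpl7l1* (55.6), *Rps4l* (50.8) and *Rpl39l* (5.56 CPM per kb) were below them. *Rpl3l* and *Rpl10l* were not analysed here. Of the cytosolic members, 61 have a pseudogene named after them, and 104 ribosomal protein pseudogenes have entries of their own in the table. How the authors counted reads shared between a gene and its pseudogenes is not given in the sources used here, so the level of a cytosolic member is uncertain by that share.

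As a share of all reads, cytosolic genes took 3.89% and 4.07% with nt at day 3 (3.98% ± 0.124, SD, n = 2). The shares were 2.87% and 2.94% with siWdr5, 3.58% and 3.69% with siBrca1 and 3.70% and 3.52% with siBard1, and all 6 knockdown libraries were below both nt libraries. They were 7.22% and 6.24% with nt at day 6. Mitochondrial genes took 0.278% and 0.283% with nt at day 3 and 0.326% and 0.302% at day 6. At day 6 the cytosolic level was higher in replicate 1 than in replicate 2 of every group, and the median log2 CPM of the class differed most between the siBrca1 libraries, 9.47 against 8.84.

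**Figure D1:**
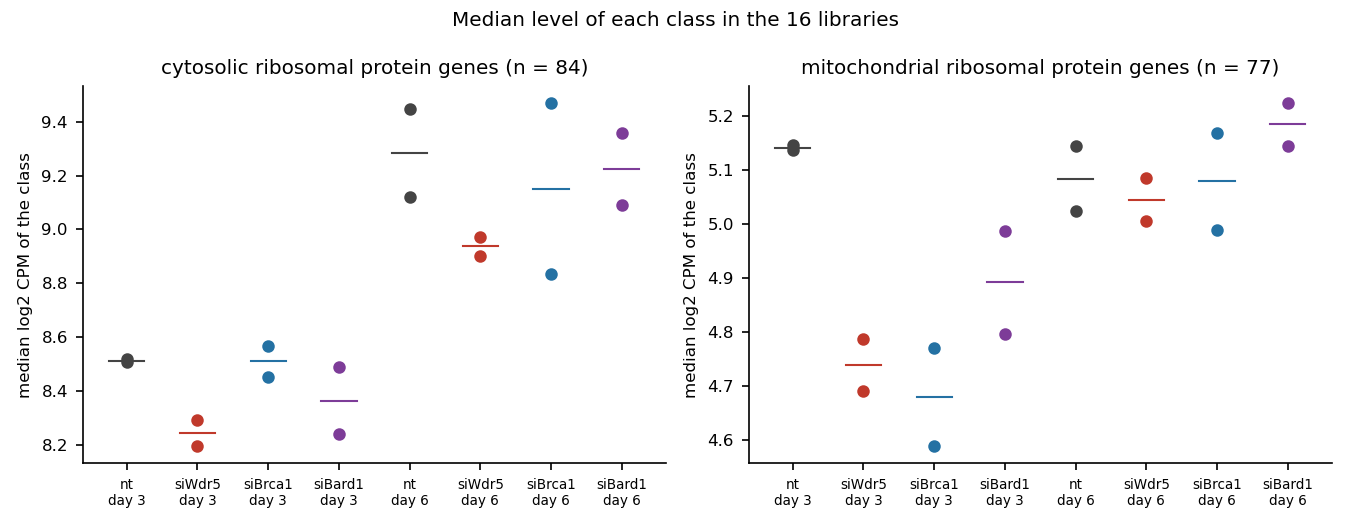
Median log2 CPM of the 84 tested cytosolic genes (left) and 77 mitochondrial genes (right) in each library, by siRNA and day; points are libraries and bars are group means of 2. Both siWdr5 libraries and both siBard1 libraries lie below both nt libraries at day 3 in each class, the siBrca1 libraries do so in the mitochondrial class, and the cytosolic class is higher at day 6 than at day 3 in all groups.

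Which ribosome genes changed when *Wdr5* was depleted during the first days of reprogramming was asked by comparing siWdr5 with nt at day 3. Of 14028 genes tested, 18.3% were called higher and 16.8% lower (limma, Benjamini-Hochberg adjusted p under 0.05). Of 84 cytosolic members tested, 48 fell (57.1%), 0 rose and 36 did not pass, with a median log2-fold change of -0.44. Of 77 mitochondrial members, 42 fell (54.5%), 0 rose and 35 did not pass, with a median of -0.42. The median of all genes tested was -0.04. The cytosolic count was 35 to 41 without 1 library. With a log2-fold change of at least 1 required as well it was 4, and the mitochondrial count was 0. The mitochondrial count was 27 without the trend, 15 and 18 without nt replicate 1 or 2 and 13 and 26 without siWdr5 replicate 1 or 2.

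The falls were uneven within the cytosolic ribosome. *Rpl36*, a large-subunit protein, had 315.9 and 346.3 CPM with nt and 165.4 and 168.6 with siWdr5, a log2-fold change of -0.99 ± 0.12 (SE, adjusted p = 4.45e-05, limma). *Rps14*, a small-subunit protein, had 705.4 and 828.2 CPM with nt and 381.2 and 423.6 with siWdr5 (-0.93 ± 0.13, adjusted p = 1.44e-04, limma). The nt and siWdr5 libraries did not overlap in these genes. *Rpl36a* (-1.09), *Rpl29* (-0.94) and *Rpl35* (-0.90) fell by similar amounts. *Rpl5* and *Rpl11*, which with 5S RNA form the particle that binds MDM2, fell by 0.58 and 0.75 on the log2 scale. *Rps6*, the small-subunit substrate of S6 kinase, fell by 0.49.

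Other cytosolic genes did not pass. *Rplp0*, the base of the stalk, had 1820 and 1805 CPM with nt and 2049 and 2141 with siWdr5 (0.21 ± 0.13, adjusted p = 0.235, limma). *Rplp2* was 386.5 and 399.0 against 442.3 and 428.0, and its partner *Rplp1* 1351 and 1261 against 1254 and 1195. Values for *Rpsa*, the laminin receptor and small-subunit protein, were 1150 and 1064 against 968.4 and 1046. *Rps19*, which is mutated in Diamond-Blackfan anaemia, had a log2-fold change of -0.16 and *Rps27* one of -0.25. Core genes spread from -1.09 to 0.21, with 41 of the 76 tested below -0.4 and 24 at or above -0.2. Of the core large-subunit genes 31 of 45 fell (median -0.58), and of the small-subunit genes 13 of 31 fell (median -0.25). Length and GC content of the mRNA had Spearman correlations of 0.14 and 0.07 with the change across these 76 genes. The same correlations were -0.28 and 0.29 across the 77 mitochondrial members and 0.17 and 0.06 across 14018 genes. Core cytosolic mRNAs had a median length of 886 bases, against 2993 for all tested genes, and the part of length was not tested.

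Among the copies, *Rpl22l1*, a paralog of the RNA-binding protein *Rpl22*, was at 42.4 and 44.7 CPM with nt and 18.9 and 20.4 with siWdr5 (-1.15 ± 0.13, adjusted p = 3.13e-05, limma). *Rpl22* itself was 351.4 and 309.1 against 297.8 and 273.2 CPM. *Rpl7l1*, a relative of *Rpl7*, fell by 0.76. *Rpl6l* and *Rps3a2* also passed, at -1.32 and -1.10, but on 6 to 36 reads a library. *Rps27l* (-0.16), *Rpl39l* (-0.28) and *Rps4l* (-0.07) did not pass.

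**Figure D2:**
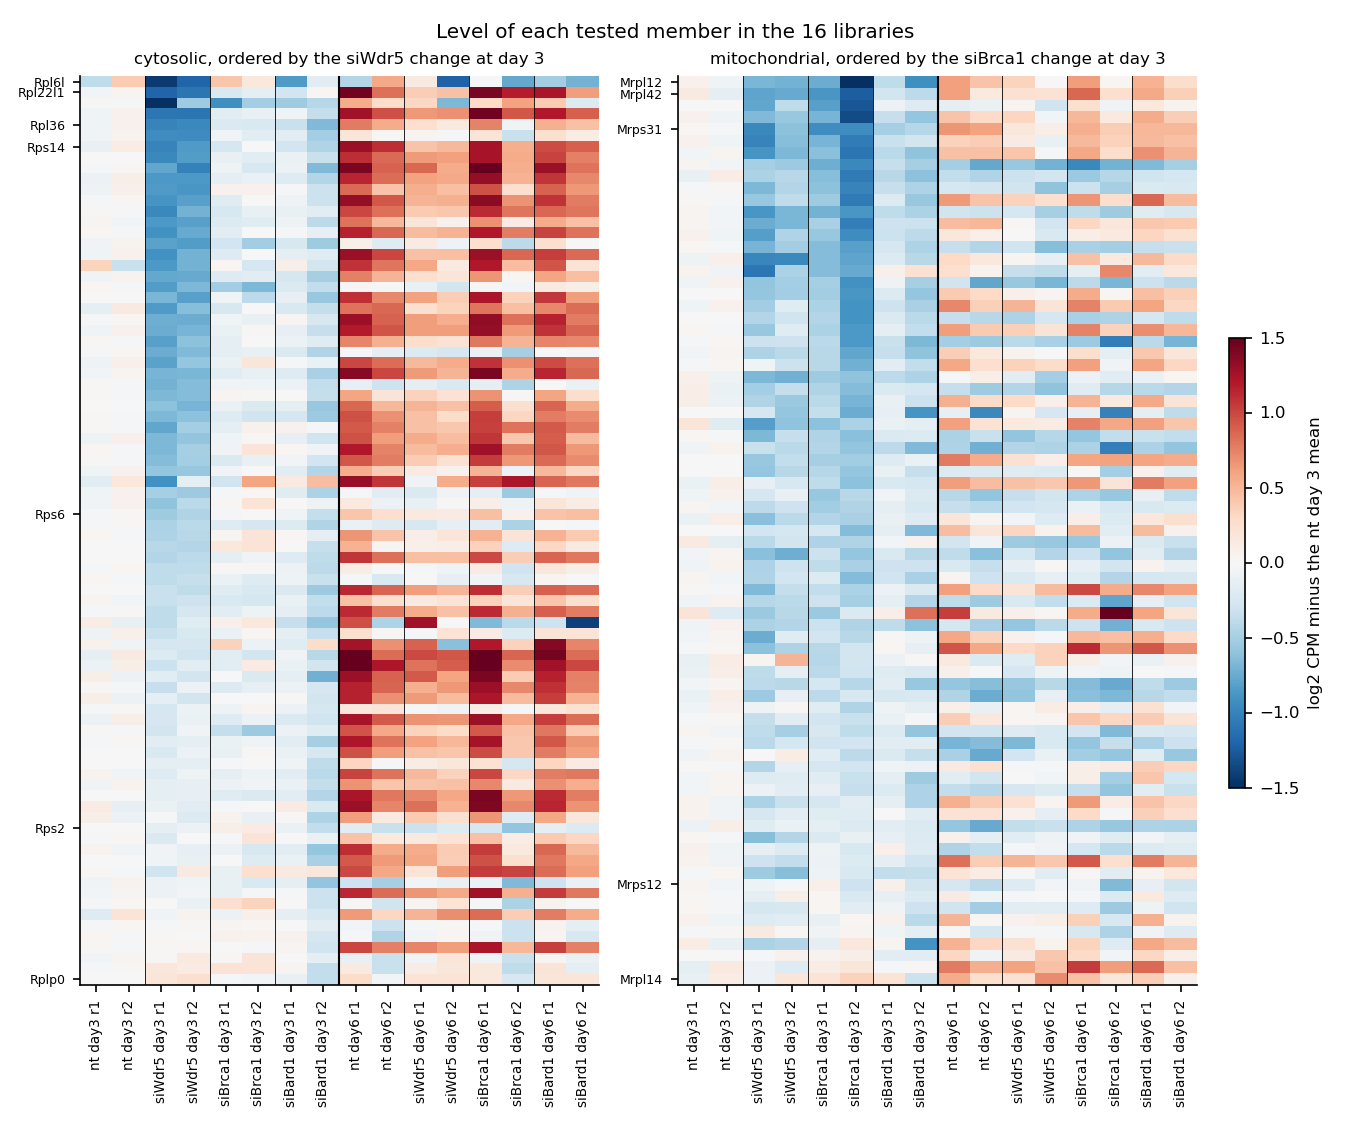
Level of each tested member (rows) in each library (columns) as log2 CPM minus the nt day 3 mean, with cytosolic genes ordered by the siWdr5 change and mitochondrial genes by the siBrca1 change at day 3, and a few rows labelled by gene. In the left panel the siWdr5 day 3 columns run from blue at the top, where *Rpl6l* and *Rpl22l1* stand, to pale red at the bottom, where *Rplp0* stands, while the siBrca1 day 3 columns are pale for most rows.

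The mitochondrial changes with siWdr5 had quartiles of -0.55 and -0.25, and 11 of 29 small-subunit and 31 of 48 large-subunit genes fell. *Mrpl11*, next to the factor-binding region, was 35.4 and 39.4 CPM with nt and 19.0 and 19.2 with siWdr5 (-0.97 ± 0.13, adjusted p = 1.13e-04, limma). *Mrpl47* was 27.7 and 25.5 against 13.3 and 17.1, and *Mrps31* 28.5 and 27.3 against 14.3 and 18.3. These genes fell by 0.82 and 0.79, and nt and siWdr5 libraries did not overlap. *Mrpl12*, a stalk protein that also binds the mitochondrial RNA polymerase, fell by 0.70. *Mrps12*, a decoding-site protein, was 28.2 and 26.5 against 25.8 and 26.9 and did not pass. The 5 genes above 0 (*Mrps6*, *Mrpl43*, *Mrps7*, *Mrpl14* and *Mrps21*) lay between 0.02 and 0.27, and none passed.

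**Figure D3:**
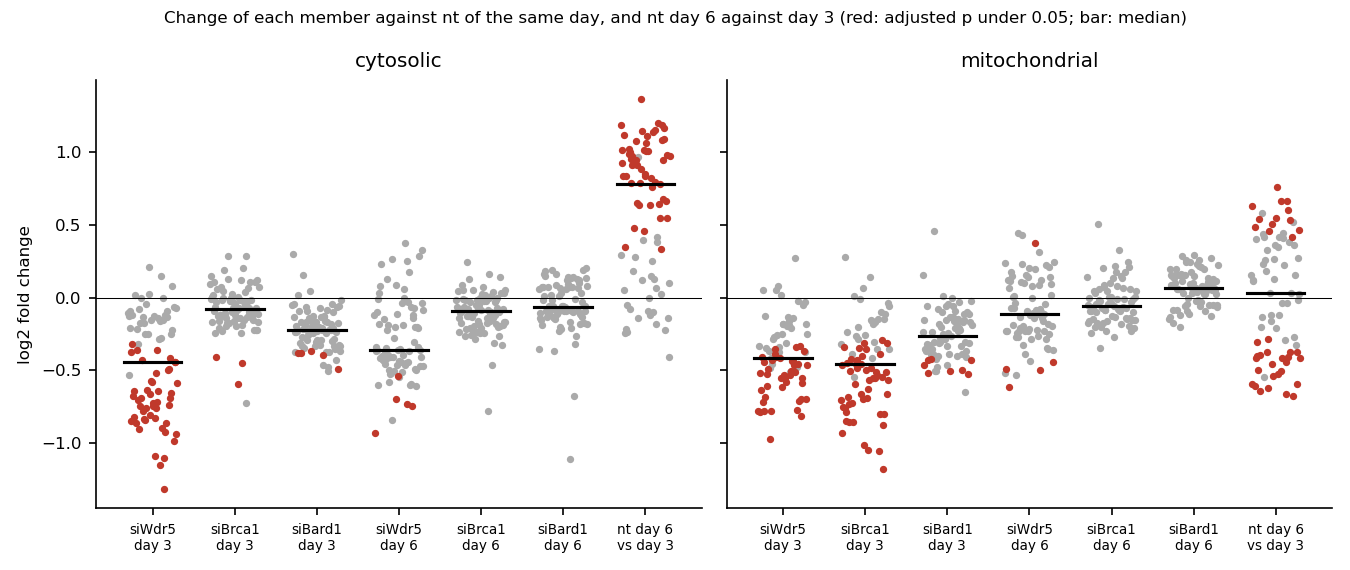
Log2-fold change of every tested cytosolic (left) and mitochondrial (right) member in 7 comparisons; red points passed at an adjusted p under 0.05, grey points did not, and bars are medians. For siBrca1 at day 3 the cytosolic bar is at -0.08 with 3 red points and the mitochondrial bar at -0.46 with 50.

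With siBrca1 at day 3, mitochondrial genes were lower and most cytosolic ones did not pass. All genes tested were called higher in 25.4% and lower in 21.8%. Of 77 mitochondrial members, 50 fell (64.9%), 0 rose and 27 did not pass, with a median of -0.46. Of 84 cytosolic members, 3 fell (3.57%) and 0 rose, with a median of -0.08, where the median of all genes was 0.00. That cytosolic count depended on the scaling between libraries: quantile normalization gave 58 fallen genes and a median of -0.33, and limma-voom on recovered reads gave 11. It was 6 without siBrca1 replicate 1. The mitochondrial count was 33 without nt replicate 2 and 35 to 52 without any other of the 4 libraries.

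*Mrpl12* was 74.4 and 68.5 CPM with nt and 42.7 and 23.3 with siBrca1, a log2-fold change of -1.18 ± 0.22 (adjusted p = 7.01e-04, limma). *Mrpl42* was 63.5 and 52.5 against 31.5 and 24.4 (-1.06 ± 0.14, adjusted p = 5.74e-05, limma). *Mrpl18*, which helps to bring 5S RNA into mitochondria, was 37.0 and 36.5 against 20.9 and 15.05 (-1.05 ± 0.17). In each of them both siBrca1 libraries were below both nt libraries, and replicate 2 was lower than replicate 1. *Mrpl48* (-1.02), *Mrps31* (-0.93), *Mrpl47* (-0.88), *Mrpl46* (-0.86), *Mrps27* (-0.85) and *Mrpl49* (-0.85) followed. *Mrps12* (-0.12), *Mrps23* (-0.17) and *Mrpl33* (0.14) did not pass. *Mrpl18* and *Mrpl12* share 10.1% and 13.1% of their exon bases with the opposite-strand genes *Tcp1* and *Gm16755*.

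The 3 cytosolic genes that fell with siBrca1 were *Rpl7l1*, *Rps27l* and *Rpl27*, and 2 of them are copies. *Rpl7l1* was 148.0 and 141.7 CPM with nt and 101.3 and 91.1 with siBrca1 (-0.59 ± 0.11, adjusted p = 5.80e-04, limma). *Rps27l*, a p53-responsive relative of *Rps27*, was 210.2 and 206.4 against 163.0 and 142.4 (-0.45 ± 0.11, adjusted p = 0.00421, limma). *Rps27* itself was 370.1 and 417.7 against 353.6 and 428.2, with overlapping libraries. *Rpl27* fell by 0.41. *Rps6* was 318.0 and 323.2 against 315.7 and 319.0 CPM.

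The difference between siWdr5 and siBrca1 at day 3 was tested directly, a comparison added after the values were seen. Over all genes 5.47% were higher and 10.2% lower with siWdr5. Of the cytosolic members 41 of 84 (48.8%) were lower with siWdr5 than with siBrca1 and 0 were higher, with a median of -0.40. The count was 17 without siWdr5 replicate 1 and 27 without siWdr5 replicate 2. *Rpl22l1* (-0.96), *Rpl29* (-0.82), *Rps14* (-0.79) and *Rpl36* (-0.76) were among the lower ones. Of the 77 mitochondrial members 2 were lower (*Mrpl24* and *Mrpl45*), 1 was higher (*Mrps6*) and 74 did not pass, with a median of 0.06. That mitochondrial count was 18 without siBrca1 replicate 1, 1 without siWdr5 replicate 1 and 0 without siWdr5 replicate 2. For *Mrpl12* the difference was 0.48 ± 0.22 (adjusted p = 0.157, limma).

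**Figure D4:**
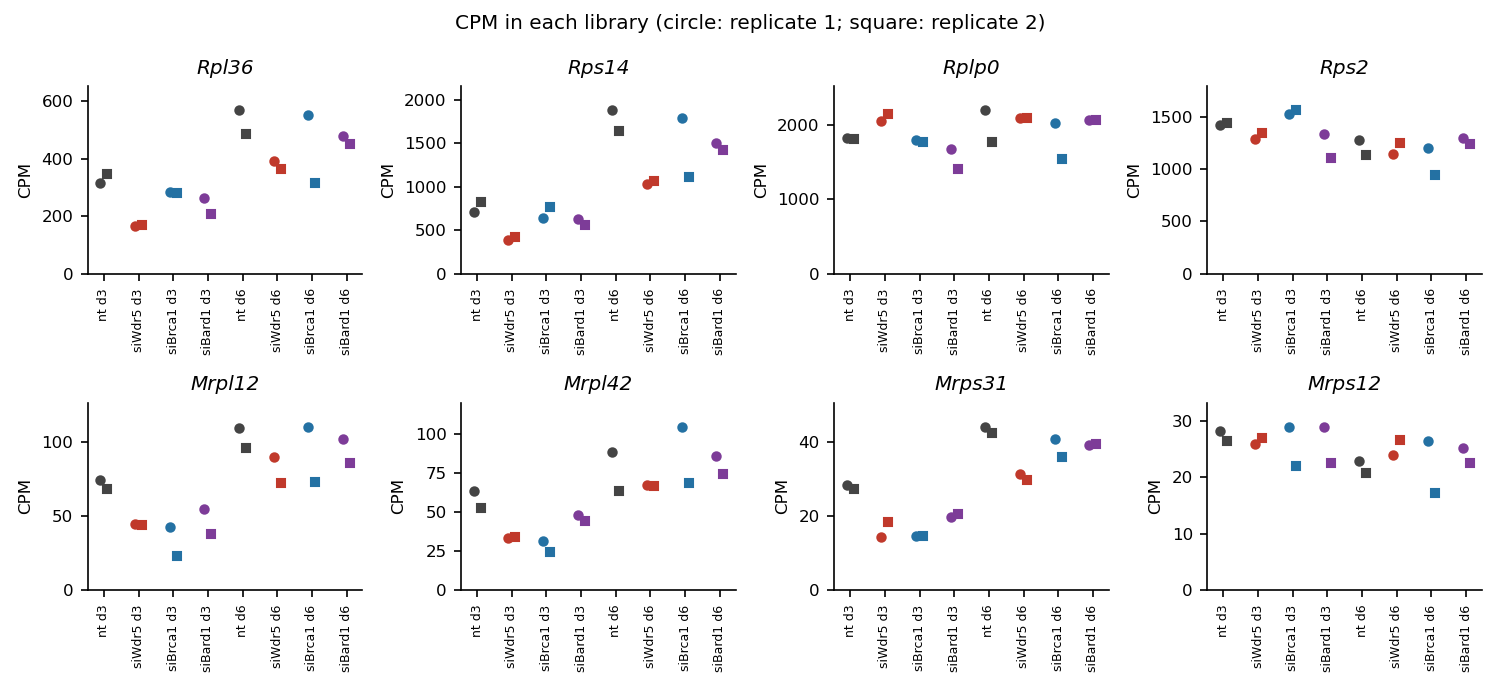
CPM of 4 cytosolic (top) and 4 mitochondrial genes (bottom) in all 16 libraries, with circles for replicate 1 and squares for replicate 2. *Rpl36* and *Rps14* are lowest in the siWdr5 day 3 libraries and higher at day 6, *Rplp0* and *Rps2* stay within a narrower range, *Mrpl42* is lowest in the siBrca1 day 3 libraries, *Mrpl12* is lowest in siBrca1 replicate 2 of day 3, and *Mrps12* varies between 17.3 and 28.9 CPM.

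With siBard1 at day 3, 8.67% of all genes were called higher and 5.87% lower, and the cytosolic members were near that share. Of the cytosolic members 5 fell (5.95%), *Rpl36* and *Rpl10a* among them, and of the mitochondrial ones 8 (10.4%), with medians of -0.22 and -0.27. *Rpl36* was 263.3 and 209.3 CPM against 315.9 and 346.3 with nt (-0.49 ± 0.12, adjusted p = 0.0135, limma). *Rpl10a* (-0.40) was lower in both siBard1 libraries, and replicate 2 was lower than replicate 1. *Mrpl4* (-0.53), *Mrpl49* (-0.52) and *Mrps26* (-0.51) had the largest mitochondrial falls that passed. The cytosolic count was 0 without either nt library or without siBard1 replicate 2, 21 without siBard1 replicate 1 and 33 with quantile normalization. The mitochondrial count was 0 without the same 3 libraries, 24 with only the 4 libraries compared and 13 with the replicate block. Without the trend both counts were 0. Across the 76 core cytosolic genes the siBard1 change had a Spearman correlation of -0.58 with mRNA GC content, against -0.19 across 14018 genes, and the part of GC content was not tested.

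How the ribosome genes move as reprogramming proceeds was asked with the nt libraries of day 6 and day 3. Over all genes 19.0% were called higher and 27.1% lower at day 6. Of the 84 cytosolic members 55 rose (65.5%), 0 fell and 29 did not pass, with a median log2-fold change of 0.78 where all genes had -0.07. The part of the marker sums, which moved over the same days, was not tested. *Rps27* was 370.1 and 417.7 CPM at day 3 and 1122 and 910.3 at day 6 (1.36 ± 0.20, adjusted p = 7.81e-05, limma). *Rps14* rose from 705.4 and 828.2 to 1878 and 1647 CPM (1.20 ± 0.18), and *Rpl39*, at the exit tunnel, from 93.6 and 116.4 to 258.8 and 218.9 (1.19 ± 0.27). *Rpl22l1* (1.14), *Rps19* (1.02), *Rpsa* (0.92), *Rpl11* (0.91), *Rpl5* (0.85), *Rplp1* (0.83), *Rps27l* (0.76) and *Rps6* (0.34) also rose.

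The rise was not shared by all cytosolic genes. *Rps2* was 1423 and 1439 CPM at day 3 and 1278 and 1138 at day 6 (-0.25 ± 0.14, adjusted p = 0.170, limma). *Rplp2* was 386.5 and 399.0 against 431.2 and 310.3, and *Rplp0* 1820 and 1805 against 2188 and 1768. Values overlapped in both stalk genes. *Rps13* (-0.24), *Rpl6* (-0.21), *Rpl14* (-0.18) and *Rps4l* (-0.41) did not pass. Of 76 core genes 19 were below 0.2, 10 lay between 0.2 and 0.6, and 47 were at 0.6 or above. Small-subunit core genes rose in 24 of 31 cases (median 0.92) and large-subunit ones in 29 of 45 (median 0.68). mRNA length had Spearman correlations of -0.23 with the change across the core genes and -0.30 across all genes.

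Mitochondrial genes went both ways over the same days. Of 77, 13 rose (16.9%), 24 fell (31.2%) and 40 did not pass, with a median of 0.03. The split depended on the scaling: quantile normalization gave 24 rises and 13 falls, and limma-voom 28 rises and 11 falls. Without 1 library, 13 to 21 genes passed: 16 and 13 without nt day 3 replicate 1 or 2, and 19 and 21 without nt day 6 replicate 1 or 2. *Mrps14* was 31.5 and 32.7 CPM at day 3 and 61.6 and 48.0 at day 6 (0.76 ± 0.16, adjusted p = 9.56e-04, limma), and *Mrpl50* (0.67) and *Mrpl33* (0.66) also rose. *Mrps2* was 44.7 and 45.4 against 27.7 and 28.7 (-0.68 ± 0.14, adjusted p = 9.27e-04, limma), and *Mrps23* (-0.67) and *Mrps27* (-0.64) also fell. The median of the mitochondrial class lay 3.37 ± 0.02 (SD, n = 2) log2 units under the cytosolic one at day 3 and 4.20 ± 0.15 under it at day 6.

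**Figure D5:**
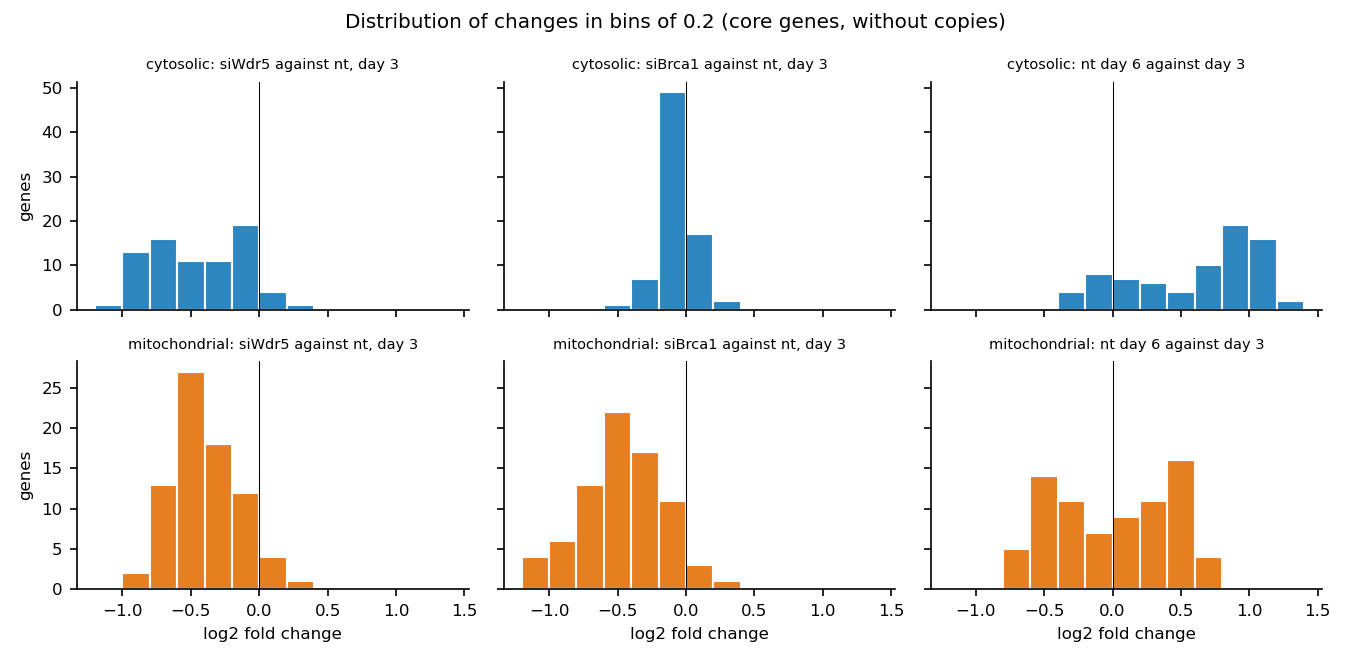
Number of core cytosolic (top) and mitochondrial (bottom) genes in bins of 0.2 of log2-fold change for siWdr5 and siBrca1 at day 3 and for nt day 6 against day 3. In the cytosolic day 6 panel, 19 of 76 genes lie below 0.2 and 47 at 0.6 or above; in the siWdr5 panel the genes spread from -1.09 to 0.21.

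At day 6 few members passed in the knockdowns, and the siWdr5 counts moved with the model. With siWdr5, 16.1% of all genes were higher and 5.70% lower, and of the cytosolic members 5 fell (5.95%), of the mitochondrial members 4 fell (5.19%) and 1 rose (1.30%). The cytosolic median was -0.36, against 0.08 for all genes. *Rpl39* was 258.8 and 218.9 CPM with nt and 100.6 and 154.1 with siWdr5 (-0.93 ± 0.19, adjusted p = 0.00923, limma), and *Rps14* 1878 and 1647 against 1031 and 1071 (-0.74 ± 0.22, adjusted p = 0.0389, limma). *Rps7*, *Rpl22l1* and *Rpl5* were the other 3. *Mrps22* fell by 0.62 and *Mrpl50* by 0.50, *Mrps31* and *Mrpl32* fell as well, and *Mrpl10* rose by 0.38. The cytosolic count was 0 without either nt library, 1 without either siWdr5 library, 15 with the replicate block, 18 with only the 4 libraries compared, 19 with all 16 libraries in the model, 21 with limma-voom and 35 with quantile normalization. The mitochondrial count was 0 without either nt library or siWdr5 replicate 2, 8 with only the 4 libraries compared or with all 16, and 10 with quantile normalization. The day 3 and day 6 changes with siWdr5 share no library, and across genes they had a Spearman correlation of 0.51 in 76 core cytosolic and 0.56 in 77 mitochondrial members; genes of a library are not independent.

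With siBrca1 at day 6, limma called 0% of genes higher and 0% lower, and no member passed; 1123 genes (8.01%) had an unadjusted p under 0.05, 0 of them members, and limma-voom on recovered reads also called 0 members. With siBard1 at day 6, 0.0784% of genes were higher and 0% lower, and again no member passed in limma or limma-voom, with 0 members among the 1908 genes (13.6%) at an unadjusted p under 0.05. Medians of the cytosolic class were -0.10 and -0.07 and of the mitochondrial class -0.06 and 0.07. *Mrpl12* was 110.0 and 73.0 CPM with siBrca1 and 109.6 and 95.7 with nt. None of the 3 siRNA targets passed in either comparison.

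Whether the changes differed between the days was tested as an interaction in a model of all 16 libraries. For siBrca1, 10.3% of genes had a higher change at day 6 and 10.3% a lower one, and of the mitochondrial members 18 (23.4%) had a higher one and 0 a lower one. *Mrpl18*, at -1.05 on day 3, differed by 1.27 ± 0.24 (adjusted p = 0.00376, limma), and *Mrpl42* by 1.23 ± 0.27 (adjusted p = 0.00659, limma). The count of 18 was 7 and 11 without nt day 3 replicate 1 or 2, 6 without siBrca1 day 3 replicate 2, 8 without nt day 6 replicate 2 and 28 without siBrca1 day 6 replicate 2. Of the cytosolic members 1 passed, *Rpl7l1* (0.59 ± 0.15), and 0 without nt day 3 replicate 1 or siBrca1 day 3 replicate 2. Without siBrca1 day 6 replicate 1 it was 4, of which 3 were lower, and without siBrca1 day 6 replicate 2 it was 2. For siWdr5, 3.40% of genes were higher and 1.03% lower in this test, and 4 cytosolic (4.76%) and 4 mitochondrial members (5.19%) were higher. *Rpl27* (0.90), *Rpl29* (0.85), *Mrps15* (0.83) and *Mrps5* (0.71) had the largest values among those that passed, where the median of all genes was 0.12. Without any 1 of the 8 libraries, and after centring on the median gene, both counts were 0. For siBard1, 0.0214% of genes were higher and 0.0285% lower, and no member passed in limma or limma-voom. At an unadjusted p under 0.05 there were 4 of 84 cytosolic and 22 of 77 mitochondrial members, where 19.2% of all genes tested were.

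Other genes of translation were counted beside the members at day 3, where 16.8% of all genes fell with siWdr5, 21.8% with siBrca1 and 5.87% with siBard1. Ribosome genes outside the symbol rule numbered 10 tested with *Mrpl58*, a member listed here too; 4 fell with siWdr5, 6 with siBrca1 and 0 with siBard1. The 6 included the cytosolic gene *Rpl36al* (-0.88), a copy of *Rpl36a*. *Rack1*, a small-subunit protein of the cytosolic ribosome, was 1454 and 1470 CPM with nt, 997.0 and 1069 with siWdr5 (-0.50) and 1507 and 1623 with siBrca1. *Fau*, which encodes the small-subunit protein eS30, was 258.1 and 284.7 against 255.2 and 256.4 with siWdr5. *Ptcd3* and *Chchd1*, mitochondrial small-subunit proteins, fell with siWdr5 (-0.43 and -0.56) and with siBrca1 (-0.75 and -0.69), and *Dap3* passed with neither.

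Of 37 cytosolic initiation factors, 4 fell with siWdr5 (*Eif2s2*, -0.54; *Eif3m*, -0.44), 14 with siBrca1 (*Eif2s1*, -0.65; *Eif2b1*, -0.61) and 2 with siBard1 (*Eif2b4* and *Eif3g*). These were 10.8%, 37.8% and 5.4% of the list, the first below and the last near the share of all genes. Of 11 elongation and release factors, counted with *Eef1e1*, a subunit of the aminoacyl-tRNA synthetase complex, 3, 5 and 0 fell. *Eef1g* was at -0.57 and *Eef1e1* at -0.49 with siWdr5. *Eef1e1* was at -0.82 and *Eif5a* at -0.60 with siBrca1. Of 22 cytosolic aminoacyl-tRNA synthetase genes, 7 fell with siWdr5 (*Dars*, -0.83; *Lars*, -0.60), 8 fell with siBrca1 (*Dars*, -0.73; *Vars*, -0.71) and 2 rose with it, and 4 fell with siBard1 (*Vars*, -0.62; *Farsa*, -0.43). None of the cytosolic factors rose with siWdr5 at day 3.

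Among 17 mitochondrial translation and transcription factors, *Tfam* and *Polrmt* being of transcription, 4 (23.5%) fell with siWdr5 (*Mtrf1* at -0.77 and *Guf1* at -0.70). With siBrca1 10 (58.8%) fell (*Guf1* at -0.83 and *Tfam* at -0.82), and with siBard1 2 (11.8%) fell (*Tufm* and *Polrmt*). Among 17 mitochondrial aminoacyl-tRNA synthetases 9 (52.9%), 10 (58.8%) and 6 (35.3%) fell. *Lars2* had the largest change in each and was 236.8 and 270.8 CPM with nt, 21.0 and 109.5 with siWdr5, 90.3 and 37.7 with siBrca1 and 28.9 and 45.8 with siBard1. The share of reads on mitochondrial ribosomal RNA moved the same way, from 0.0233% and 0.0159% with nt to between 7.01e-04% and 0.00616% with the knockdowns, and its part was not tested. *Yars2* fell by 1.13 with siBrca1 and *Pars2* by 0.64 with siBard1.

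A list of 19 regulators of mTORC1, of TOP mRNAs and of ribosome production was counted as well. Of these, 4 fell with siWdr5 (21.1%, near the 16.8% of all genes). With siBrca1 7 fell (36.8%, against 21.8%) and 2 rose, and with siBard1 4 fell (21.1%, against 5.87%). How reads of the c-Myc transgene were counted is not given in the sources used here. *Myc* was 628.4 and 646.6 CPM with nt, 412.4 and 408.0 with siWdr5 (-0.64), 351.1 and 263.6 with siBrca1 (-1.07) and 400.2 and 276.7 with siBard1 (-0.94). *Polr1b*, a subunit of RNA polymerase I, fell by 0.55, 0.90 and 0.55. *Mycn* fell by 1.53 with siBrca1, from 4.03 and 3.56 to 1.17 and 1.47 CPM. Of 9 snoRNA host genes, 1 fell with siWdr5 (*Snhg5*), 6 with siBrca1 (*Snhg14* at -0.93 and *Snhg5* at -0.87) and 0 with siBard1. From day 3 to day 6 with nt, 8 of these host genes rose (*Snhg14* by 1.39 and *Snhg6* by 1.00). Their starts were not searched for a TOP run. Of 41 pseudogenes tested, 6 fell with siWdr5 at day 3 (14.6%, below the share of all genes) and 15 rose from day 3 to day 6 (36.6%, against 19.0% of all genes).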

How the data were processed

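RNA was measured in 16 libraries, 8 groups of 2. The authors aligned paired reads to mm10 with STAR 2.5.2b and deposited log2 CPM values per gene made with edgeR 3.20.9, per the submitters' processing notes; the read counter, the annotation and any filter on genes are not given in the sources used here. Whole reads were recovered from all values within 0.01 of a read. As the deposited unit is a log2 value, limma 3.58.1 (R 4.3.3, trend) on those values was the main test, checked on simulated data: 14028 genes of mean log2 CPM of 0 or more, the 8 libraries of a day (all 16 for the nt course and the interactions), Benjamini-Hochberg adjusted over all genes tested, two-sided, called at an adjusted p under 0.05. Replicate numbers were not used as pairs. The members, the lists and the naming rule were chosen with earlier results of these data known. That rule took, per class, the 3 called members with the largest rises and falls at day 3 and in the nt course, the 2 largest called changes at day 6 and in the interactions, a set of well-known members, and the 2 largest called changes of each accompanying list. Other genes were named after their values were seen, and some that the rule took are not reported here. The siWdr5 against siBrca1 comparison was added after the data were seen. Alternatives changed the filter, libraries fitted, trend, pseudocount, scaling, replicate block, fold threshold and libraries left out. Lengths and GC content come from the reference annotation by Ensembl ID. Python 3.11.15 with pandas 2.3.3 was used.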

Additional observations from a re-analysis of the deposited data

Results flagged for a closer look

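The results below were singled out because the change with a knockdown differed between day 3 and day 6 in a test of that difference, in limma over all 16 libraries; values are the day 6 change minus the day 3 change, on the log2 scale. With siWdr5, 4 cytosolic and 4 mitochondrial members passed: *Rpl27* (0.90) and *Rpl29* (0.85) led the cytosolic ones, and *Mrps15* (0.83) and *Mrps5* (0.71) the mitochondrial ones. These were 4.76% and 5.19% of the members, where 3.40% of all genes were higher and 1.03% lower, and both counts were 0 without any 1 of the 8 libraries and after centring on the median gene. With siBrca1, 1 cytosolic member passed, *Rpl7l1* (0.59), and 18 mitochondrial members did, led by *Mrpl18* (1.27) and *Mrpl42* (1.23). That was 1.19% of the cytosolic and 23.4% of the mitochondrial members, where 10.3% of all genes were higher and 10.3% lower. Both siBrca1 counts moved when 1 library was left out. All member differences that passed in the main fit were positive.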

How the results depend on the processing

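Counts are members called and medians are log2-fold changes. Quantile normalization gave a cytosolic median of -0.63 for siWdr5 at day 3, 58 cytosolic calls and a median of -0.33 for siBrca1 at day 3, 33 cytosolic calls for siBard1 at day 3, 35 cytosolic and 10 mitochondrial calls (mitochondrial median -0.27) for siWdr5 at day 6, 37 mitochondrial calls with more rises than falls (median 0.20) for the nt course, 0 mitochondrial calls (median 0.18) for the siWdr5 interaction and 3 cytosolic calls for the siBrca1 interaction. Limma-voom gave medians of -0.53 and -0.51 for siWdr5 at day 3, 11 cytosolic calls for siBrca1 at day 3, 21 cytosolic calls and a mitochondrial median of -0.24 for siWdr5 at day 6, 39 mitochondrial calls with more rises (median 0.16) for the nt course and 2 cytosolic calls for the siWdr5 interaction. Requiring a log2-fold change of 1 gave, cytosolic then mitochondrial, 4 and 0 for siWdr5, 0 and 4 for siBrca1 and 0 and 0 for siBard1 at day 3, 0 and 0 for siWdr5 at day 6, 19 and 0 for the nt course, 0 and 0 for the siWdr5 and 0 and 2 for the siBrca1 interaction, and 1 and 0 for siWdr5 against siBrca1. Without the trend, counts were 27 mitochondrial for siWdr5 at day 3, 0 and 0 for siBard1 at day 3, 1 and 2 for siWdr5 at day 6, 0 and 0 for the siWdr5 interaction and 0 mitochondrial for siWdr5 against siBrca1. Without a filter they were 0 and 3 for siBard1 at day 3, 3 mitochondrial for siWdr5 at day 6, 1 and 2 for the siWdr5 interaction and 1 mitochondrial for siWdr5 against siBrca1. With all 16 libraries they were 0 cytosolic for siBard1 at day 3 and 19 and 8 for siWdr5 at day 6, and with only the 4 libraries compared 24 mitochondrial for siBard1 at day 3, 18 and 8 for siWdr5 at day 6 and 0 mitochondrial for siWdr5 against siBrca1. Centring on the median gene gave 9 cytosolic calls for siWdr5 at day 6, 0 and 0 for the siWdr5 interaction (mitochondrial median 0.20) and 5 mitochondrial calls with more rises than falls for siWdr5 against siBrca1. A pseudocount of 1 CPM and a stricter filter moved no count by over 1.5 times. The cause of these differences was not tested.

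Libraries of the same number did not deviate together in all pairs (correlations of -0.093 to 0.072 at day 3 and -0.07 to 0.26 at day 6). The class medians at day 6 did, however, share a direction: in both classes replicate 1 was above replicate 2 in every group. With nt at day 6 they were 9.45 and 9.12 log2 CPM (cytosolic) and 5.14 and 5.02 (mitochondrial). A shared shift between the experiments of day 6 thus remains possible for the members. With the replicate block there were 13 mitochondrial calls for siBard1 at day 3, 15 cytosolic calls for siWdr5 at day 6 and 5 mitochondrial calls, mostly higher, for siWdr5 against siBrca1; no other count moved by over 1.5 times. Leaving out 1 library, where a lone sample is assumed to vary like the other groups, gave ranges of 13 to 26 mitochondrial calls for siWdr5, 2 to 6 cytosolic and 33 to 52 mitochondrial for siBrca1, and 0 to 21 and 0 to 6 for siBard1 at day 3. At day 6 with siWdr5 they were 0 to 1 and 0 to 4, with mitochondrial medians of -0.21 to 0.01, the sign turning without nt replicate 1. Mitochondrial medians ran from -0.15 to 0.10 with siBrca1 and from 0.00 to 0.18 with siBard1 at day 6. For the nt course, 13 to 21 mitochondrial members passed, with medians of -0.05 to 0.12. Interaction counts were 0 to 0 and 0 to 0 for siWdr5 and 0 to 4 and 6 to 28 for siBrca1, and siWdr5 against siBrca1 gave 17 to 44 and 0 to 18. With 2 libraries a group, and pseudogene reads that cannot be assigned, small changes of single members are uncertain.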
